A study of Mus musculus with 20 samples.

Results

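The cells described here were stromal cells of mouse interscapular brown adipose tissue (iBAT) that carried RNA for Cilp, Thbs4 or both. They were chosen by the deposited values of single cells. A cell entered when the summed values of Pdgfra, Col1a1 and Dcn reached 5, those of the endothelial and immune genes Pecam1, Cdh5 and Ptprc stayed under 1, and those of Cilp and Thbs4 reached 3. Lrrc15 had to be under 0.5, the ASC2 and sheath genes Pi16, Dpp4, Dact2 and Krtdap together under 2, and the ASC3 genes Gdf10, C7 and Epha3 together under 2. Of 38611 stromal cells in the Lin- libraries, 576 met these limits, and they are called Cilp/Thbs4 cells in the following. The rule was built on the same counts, so the levels of its genes are descriptions and carry no test.

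Cells had been dissociated from iBAT, and the Lin- fraction was the flow-through of a magnetic separation that removed cells with immune lineage markers. The 10 Lin- libraries, of 20 libraries in the series, were single-cell RNA-seq libraries, each made from the pooled tissue of 3 to 4 mice aged 8 to 14 weeks. Male C57 mice stayed at room temperature (RT, 24 °C), were exposed to 6 °C for 4 days (cold), or received the β3-adrenergic agonist CL316,243 (CL) at 0.75 nmol per hour for 4 days from an osmotic pump, with 2 libraries per group. Female mice of an Adrb1 line, all Adrb1 fl/fl and all given tamoxifen, were Pdgfra-CreER -/- (WT) or Pdgfra-CreER +/- (KO), which deletes the β1-adrenergic receptor gene in cells that express Pdgfra. This line had 1 library per genotype at RT, made with version 3 of the droplet kit, and 1 per genotype in the cold, made with version 2 as were all C57 libraries. Per the paper, its treatments were also collected on different days, so that kit, day and cold cannot be told apart within the line.

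Cilp encodes cartilage intermediate layer protein, a secreted matrix protein of cartilage, tendon and fibrous tissue that binds TGF-β and dampens its signalling. Thbs4 encodes thrombospondin-4, a calcium-binding glycoprotein of the pericellular matrix that is abundant in tendon and at the junction of tendon and muscle and binds collagens. Fat depots contain several kinds of PDGFRA+ adipose tissue stromal cells (ASC), and in iBAT ASC1 hold many preadipocyte genes, ASC2 express Pi16 and Dpp4 and occupy the connective tissue around the lobules, and ASC3 express Gdf10. Fibroblasts of tendon, fascia and nerve sheath can express Cilp or Thbs4 as well.

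The kept cells (under 10% mitochondrial counts, a total under 15000 and at least 500 genes) numbered 60538 of 89637 barcodes, from 2358 to 9829 per library. Cilp/Thbs4 cells numbered 24 to 110 per library, and their summed counts were 63311 to 466875. C57 RT replicate 2 stood apart, since 72.0% of its barcodes were over the mitochondrial limit and its Cilp/Thbs4 cells had a median of 1494 UMIs against 2117 to 4929 in the other libraries, so results that rest on it are given without it as well. No Cilp/Thbs4 cell shared its barcode with another one, although 28 had a barcode that was also kept in a second library. The top 6% of doublet scores in each library held 13 of the cells. Adrb1, the gene deleted in the KO line, was at 0 in Cilp/Thbs4 cells of both genotypes at both temperatures and gave no check of the deletion there. In the other stromal cells it was 1.24 CPM (counts per 1000000 summed counts of a class of cells in a library) in WT and 0.522 CPM in KO at RT, against 3.77 in WT and 0.541 in KO after cold exposure.

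As a class the cells were stroma with a strong summed signal for both named genes, although only 310 of the 576 cells held both. Cilp (GRCm38 chr9:65265180-65280605, plus strand) averaged 2155 CPM, between 1369 and 4574 CPM over the 10 libraries, against 39.0 CPM in the other stromal cells. Thbs4 (chr13:92751590-92794818, minus strand) averaged 1519 CPM, between 589 and 3169 CPM, against 20.02 CPM. Both differences follow from the rule. The stromal genes Pdgfra and Col1a1, which the rule used, averaged 407 and 4662 CPM against 320 and 3927 CPM in other stromal cells. Lum, a leucine-rich proteoglycan the rule did not use, averaged 2117 against 1605 CPM, whereas the stem-like surface genes Cd34 and Ly6a averaged 586 against 671 CPM and 2555 against 2718 CPM.

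The sum of Cilp and Thbs4 was 4 or more in 466 of the 576 cells and between 3 and 4 in 110, and 149 further cells that met every other condition had a sum between 2 and 3. Over each set, Tnmd was 99.2 CPM in the first, 5.40 in the second and 9.70 in the cells just outside, while cells with a sum under 2 had 1.30 CPM. Mfap4 was 846, 377 and 329 CPM in the same order, against 41.2 CPM under a sum of 2. Cells just inside and just outside the limit had like levels of these genes, with Myoc at 719 and 640 CPM, and the highest Tnmd and Mfap4 were in the cells furthest inside.

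Of 3482 further genes of at least 50 CPM, 107 were higher in Cilp/Thbs4 cells than in other stromal cells in every library, and the 30 of these with the largest ratio of means were taken as a set. These ratios describe cells that were chosen on the same counts and were not tested. Tnmd (chrX:133850980-133865577, plus strand), which encodes the tendon membrane protein tenomodulin, was 4.05 CPM in the lowest library, 86.9 CPM at the median and 561 CPM in the highest, against a mean of 2.49 CPM in other stromal cells. At this depth 54 of the 576 cells held it (9.38%, against 0.0736% of 4075 endothelial cells, whose median depth was 2155 UMIs against 3258 in Cilp/Thbs4 cells). Myoc (chr1:162639155-162649693, plus strand), which encodes the secreted glycoprotein myocilin, was between 121 and 2087 CPM with a median of 803 CPM, and 55.4% of the cells held it, against 0.344% of endothelial cells. Its lowest library, C57 CL replicate 1, was under the highest value of other stromal cells, which was 133 CPM. Col8a1 (chr16:57624258-57754737, minus strand), a short-chain collagen, was between 108 and 652 CPM with a median of 253 CPM, and the other stromal cells reached at most 38.8 CPM. The groups of Col8a1 values did not overlap, although 32.7% of endothelial cells held this gene as well, against 37.7% of the Cilp/Thbs4 cells.

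Several others of the set encode secreted matrix proteins. Hmcn2 (chr2:31314415-31460738, plus strand), which encodes the giant matrix protein hemicentin-2, was between 147 and 833 CPM and averaged 381 CPM against 42.2 CPM in other stromal cells. It was held by 56.8% of the cells and 0.319% of endothelial cells. Mfap4 (chr11:61485431-61488900, plus strand), a protein of elastic microfibrils, averaged 896 CPM, between 315 and 1954, against 29.5 CPM in ASC1-type, 54.5 CPM in ASC2-type and 443 CPM in ASC3-type cells. Other members of the set were Fbln2 (1086 against 354 CPM), which encodes fibulin-2, Tgfbi (796 against 215 CPM), a matrix protein induced by TGF-β, Lox (327 against 113 CPM), the lysyl oxidase that crosslinks collagen and elastin, and Prg4 (439 against 103 CPM), the joint lubricant lubricin.

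Genes of secreted regulators were in the set as well. The Wnt antagonists Sfrp1 and Dkk2 averaged 720 and 141 CPM against 111 and 23.4 CPM, and Wisp2 averaged 146 against 20.5 CPM. Igfbp3, which binds insulin-like growth factors, averaged 737 against 136 CPM. Apod, the lipid-binding apolipoprotein D, averaged 4484 CPM but ranged from 884 to 10108 CPM over libraries. Of the 30 genes, 17 had their lowest library above the highest library of other stromal cells, among them Fibin, Fxyd6, Angptl1 and Cd9. The set was picked for high ratios among genes higher in every library, so this count follows largely from that choice. The share of all genes without such overlap was not determined. The mean was above those of ASC1-, ASC2- and ASC3-type cells for 29 of the 30, which the choice favours as well. Gas6 was the exception at 678 against 859 CPM in ASC3-type cells. Some were nearly as high in ASC3-type cells, with 692 CPM of Tgfbi and 974 CPM of Cd9, which averaged 1024 CPM in Cilp/Thbs4 cells.

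**Figure D1:**
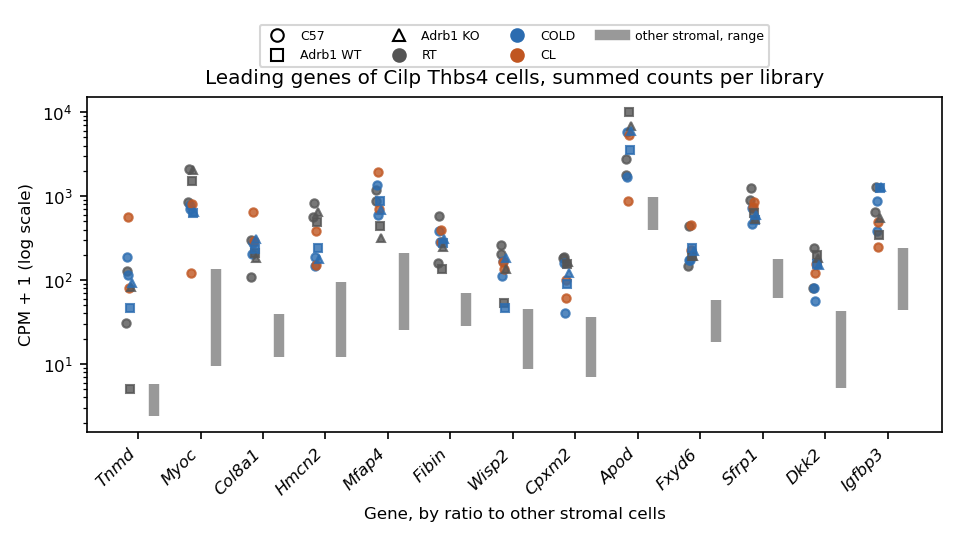
Levels of 13 marker genes in CPM plus 1, on a log axis. Each point is the sum over Cilp/Thbs4 cells of 1 Lin- library, with shape for the line and genotype and colour for RT, cold or CL, and grey bars span the same libraries in other stromal cells. Col8a1, Hmcn2 and Mfap4 lie above their bars, while Tnmd spreads from 4.05 to 561 CPM.

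Lists of genes with a shared role were set against the other stromal cells in the same way. The background was 6665 genes of at least 20 CPM, of which 44.3% had a higher mean in Cilp/Thbs4 cells than in other stromal cells, with a median ratio of 0.978. All 10 small leucine-rich proteoglycans at that level were higher, with a median ratio of 1.89, and these count Dcn, which the rule used. Among them Aspn, which encodes asporin, averaged 980 against 448 CPM, Ogn 1253 against 677 CPM and Podn 296 against 126 CPM. Of 7 secreted Wnt modulators 6 were higher with a median ratio of 6.04, and Sfrp2 was the exception at 277 against 384 CPM. Of 16 genes of TGF-β ligands, receptors, binders and targets 13 were higher, with a median ratio of 1.38. In this list the latent TGF-β binding protein gene Ltbp4 averaged 365 against 169 CPM and the target Ctgf 123 against 25.6 CPM, while the receptor gene Tgfbr2 averaged 153 against 263 CPM. Of 10 matricellular genes other than Cilp and Thbs4, which the rule fixed, 7 were higher with a median ratio of 1.57, and they included Thbs2 (294 against 124 CPM) and Tnxb (755 against 438 CPM). The collagens, with Col1a1 of the rule counted, had a median ratio of 1.06 and 12 of 19 were higher.

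Several lists were below the background. None of 11 chemokines was higher, with a median ratio of 0.69, and Cxcl13 averaged 100 against 611 CPM. Of 8 adipocyte differentiation genes 1 was higher, Adipoq, and the median ratio was 0.54. Adipoq averaged 31.9 against 30.3 CPM through 1 library, C57 COLD replicate 1 at 259.9 CPM, and 6.56 CPM without it. In that list Lpl averaged 834 against 2551 CPM and Pparg 25.5 against 62.5 CPM. None of 5 cell cycle genes was higher, and 1 of 9 sterol synthesis genes was. By contrast, immediate early genes, which also rise during tissue dissociation, were higher in 11 of 12 cases with a median ratio of 1.45, and Fos averaged 3671 against 2303 CPM. The share of this list that came from dissociation was not tested.

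The tendon signature was partial. Of 9 tenocyte genes, 5 averaged at least 1 CPM, and the summed level of the list was 48.7 to 698 CPM over libraries against 9.84 to 22.7 CPM in other stromal cells. This sum includes Tnmd, already in the set above, which was 561 of the 698 CPM in the highest library and 4.05 of the 48.7 CPM in the lowest. Only 6 of the 576 cells held 3 or more of the 9 genes. Scx, the transcription factor of the tendon lineage, averaged 7.45 CPM and was held by 8 cells (1.39%, against 0.172% of endothelial cells). It was 52.6 CPM in C57 RT replicate 2 and at 0 in 6 libraries, and its mean without that library was 2.43 CPM. Fmod averaged 43.8 CPM. Comp averaged 17.7 CPM and 11.2 CPM without C57 CL replicate 1, while Kera and Chad were at 0 in all 10 libraries. The chondrocyte genes Acan, Matn1, Matn3 and Hapln1, the osteoblast genes Sp7, Bglap and Ibsp, and the muscle precursor genes Pax7, Myf5 and Myod1 were also at 0 in all 10. Other genes of these lists were not at 0, such as Sox9 and Col2a1 of the chondrocyte and Runx2 and Alpl of the osteoblast list. Of the chondrocyte genes 2 averaged at least 1 CPM and 2 had a higher mean than in other stromal cells. Of the osteoblast genes 2 averaged at least 1 CPM and 0 had a higher mean. Of the sheath lining genes Prg4 was high, as given, whereas Has1 averaged 120 CPM against 126 CPM in other stromal cells and Clic5 and Tspan15 were under 5 CPM.

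Markers of other cell types were low in most libraries, with a few large values in single ones. All 7 perineurial genes were higher than in other stromal cells, their sum was 15.04 to 413 CPM, and Slc2a1, Ptch1 and Lypd2 averaged 36.5, 32.1 and 22.2 CPM. Without C57 COLD replicate 2 Slc2a1 averaged 24.04 CPM and Lypd2 13.5 CPM. The summed immune genes were 0 to 1367 CPM, and the highest value came from Cd74 in C57 COLD replicate 2 at 1345 CPM, while C1qa, Cd3e and Cd79a were at 0 everywhere. Only 9 cells held Cd74 (1.56%, against 2.50% of endothelial cells). The summed brown adipocyte genes were 5.16 to 5384 CPM, with Car3 at 2981 and Fabp4 at 1976 CPM in C57 COLD replicate 1. Fabp4 was held by 4.51% of Cilp/Thbs4 cells and by 96.5% of endothelial cells, which express it. The summed Schwann genes reached 352 CPM, the mural genes 512 CPM and the endothelial genes 176 CPM in their highest library. The part of these other-cell genes in the results that follow was not tested.

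Cells with only one of the defining genes were not alike. This split was made after the values had been seen. Both genes were held by 310 cells (53.8%), Cilp alone by 180 (31.2%) and Thbs4 alone by 86 (14.9%), where holding means a value of at least 0.5. The cells with Thbs4 alone had far more Apod (18686 CPM against 2136 with Cilp alone and 1641 with both) and more Spp1, which encodes osteopontin (1505 CPM against 30.2 and 7.23). They also had more Timp1, an inhibitor of metalloproteinases (2561 CPM against 385 and 453), Tnc, which encodes tenascin-C (876 CPM against 80.5 and 126), and Vit (360 CPM against 71.1 and 7.18). Angptl7 and Ccl9 were 181 and 215 CPM there and no more than 5.10 CPM in either other set. These are sums over cells, and Spp1 was held by 51 of the 86 cells, Vit by 43 and Sfrp5 by 9. They pool libraries of all treatments, and the levels did not hold in each library. WT RT held 26 of the cells with Thbs4 alone, yet its Cilp/Thbs4 cells together had 35.7 CPM of Timp1 and 8.12 CPM of Tnc.

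Of the 30 genes of the set 21 were lower with Thbs4 alone than in both other sets, 5 were higher, Apod and Col8a1 among them, and 4 lay between. Hmcn2 was 31.9 CPM with Thbs4 alone, against 286 with Cilp alone and 492 with both. Igfbp3 was 68.1 CPM against 913 and 1068, Mfap4 89.0 against 677 and 1069, and Sfrp1 120 against 811 and 817. Tnmd was 4.62 CPM against 69.5 and 121. Myoc was at a like level in all, with 861 CPM against 666 and 1062. The perineurial genes went with Thbs4 in the absence of Cilp, as Cldn1, which encodes the tight junction protein claudin-1, was 71.6 CPM with Thbs4 alone against 6.14 and 0.851, and Ptch1, the hedgehog receptor, 132 against 13.7 and 5.91. Of the 12 cells with at least 3 of the 7 perineurial genes 10 were cells with Thbs4 alone. Of the chondrocyte genes, Sox9 was 84.6 CPM with Thbs4 alone against 17.6 and 16.7, and Col2a1 23.2 CPM, held by 7 cells, against 0 and 0. Runx2 of the osteoblast list was 30.1 CPM there against 7.57 and 8.14. The rule thus took in cells with different leading genes.

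**Figure D2:**
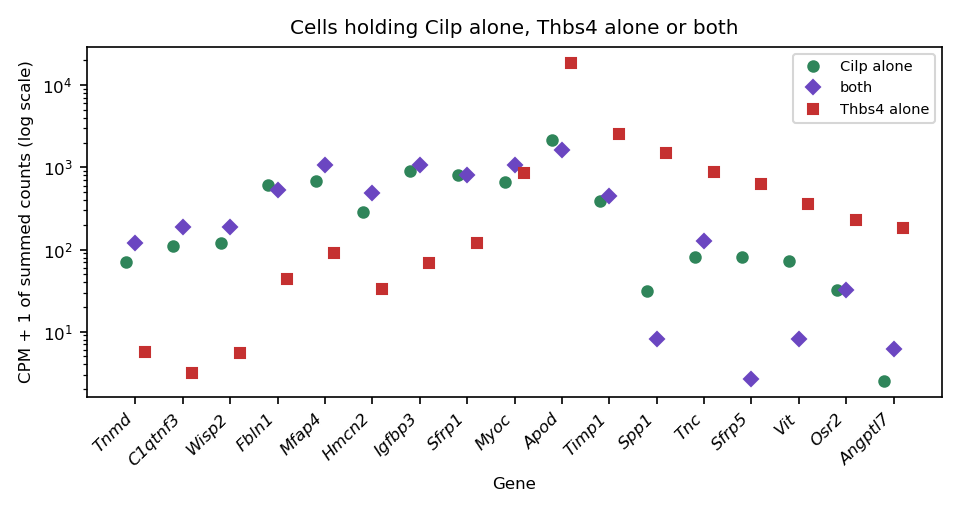
Levels of selected genes in CPM plus 1 on a log axis, in cells holding Cilp alone (180 cells), both genes (310) or Thbs4 alone (86), each summed over the 10 libraries. Apod, Spp1 and Timp1 are highest with Thbs4 alone, and Hmcn2, Igfbp3 and Mfap4 are lowest there.

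The pattern with Thbs4 alone was not evenly spread over libraries. Such cells numbered 2 in each C57 RT library, 2 and 10 in the C57 cold libraries, and after CL 3 and 5. They numbered 26 in WT RT, 18 in WT COLD, 5 in KO RT and 13 in KO COLD. The difference between the lines coincides with sex, genotype, tamoxifen and, at RT, kit version, and these cannot be told apart. Because Timp1 and Tnc were high in the sum over these cells, treatment results for those genes are given below also for the cells with Cilp.

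The first comparison asked whether cold or CL altered the abundance of the cells. They made up 1.46% of stromal cells (95% exact binomial interval 1.08 to 1.92%) in C57 RT replicate 1 and 2.65% (2.04 to 3.38%) in replicate 2. In the cold the shares were 0.416% (0.267 to 0.618%) and 1.03% (0.757 to 1.37%), and after CL they were 0.536% (0.350 to 0.784%) and 1.74% (1.40 to 2.13%). Both cold libraries lay below both RT libraries, and the CL libraries overlapped with RT. Same-numbered C57 libraries came from 1 replicate experiment, and within these pairs cold minus RT was -1.04 and -1.62 percentage points and CL minus RT -0.922 and -0.909 points, lower in 2 of 2 pairs each. An exact permutation test on 2 pairs cannot reach 0.05. These intervals cover counting error only, and in all 3 groups the intervals of the replicates did not overlap.

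The mean share was 0.722% ± 0.433 (SD, n = 2) in the cold and 2.05% ± 0.842 (n = 2) at RT, a difference of -1.33 percentage points (two-sided exact permutation p = 0.333, the smallest that 2 against 2 allows). After CL it was 1.14% ± 0.851 (n = 2), which differed from RT by -0.915 points (two-sided exact permutation p = 0.667). Without C57 RT replicate 2 the differences were -0.736 points for cold and -0.320 points for CL. In the Adrb1 line the shares went the other way, with 1.94% at RT and 2.44% in the cold in WT, and 1.78% and 2.47% in KO. Over the 4 RT and 4 cold libraries the means were 1.96% ± 0.502 at RT and 1.59% ± 1.03 in the cold, a difference of -0.371 points (two-sided exact permutation p = 0.571, where 4 against 4 could reach 0.0286). Without C57 COLD replicate 1 that difference was 0.0195 points. After thinning to 1500 UMIs per cell, with 5074 stromal cells under that depth left out, it was -0.694 points (exact permutation p = 0.2). The KO difference then also ran downwards, from 2.47% to 1.71%. Thinning also lowers the values held under the upper limits of the rule. In KO RT 34 of 1375 stromal cells passed after it and 27 of 1513 before, so that some of the 34 had not passed before. None of these exact tests passed 0.05, which those of 2 against 2 libraries could not reach. They permuted libraries freely and kept neither pairs nor lines, and the reachable 0.0286 holds for that design only. Since a share depends on all other stromal cells, fewer cells of this kind and more of the others cannot be told apart.

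**Figure D3:**
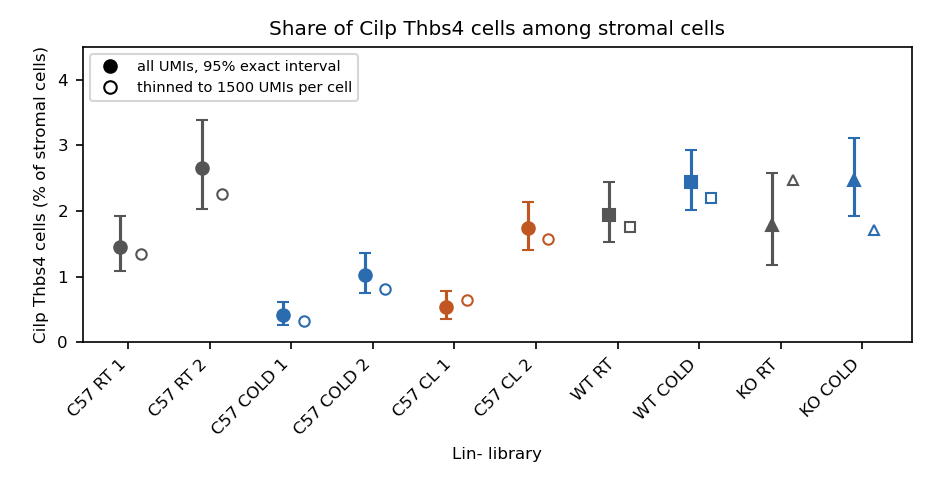
Cilp/Thbs4 cells as a percentage of stromal cells in each Lin- library (circles C57, squares WT, triangles KO, grey RT, blue cold, orange CL). Filled symbols carry 95% exact binomial intervals for counting error only. Open symbols are shares after thinning to 1500 UMIs per cell, with cells under that depth left out. The C57 cold libraries (0.416% and 1.03%) lie under the C57 RT libraries (1.46% and 2.65%), whereas in the Adrb1 line the cold values (2.44% and 2.47%) lie above those at RT (1.94% and 1.78%).

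The second comparison asked which genes differed between cold and RT within the cells. Counts were summed per library and tested with edgeR over the 6 C57 libraries, and 18 of 3327 genes passed an adjusted p of 0.05, which is 0.541% of those tested. Of these 16 rose and 2 fell, and all 18 had groups that did not overlap, as had 31.9% of the 3327 genes tested. Of the 16, 6 were in the fixed interferon list and 2 in the chemokine list. Timp1 and Tnc came from matrix lists and Saa3 from the acute-phase list. In all 220 genes had an unadjusted p under 0.05, and the median of all log2 fold changes was -0.02. Fits without 1 library gave 53 genes without COLD replicate 1, 61 without RT replicate 2 and 31 without CL replicate 1, all but the last still holding the whole 18. Without RT replicate 1 a single RT library was left, and most of the calls named next were lost. All 16 genes that rose had cold values above both RT libraries, so their direction does not rest on that library alone. With the replicate experiment as a block 27 genes passed, among them all 18.

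The acute-phase gene Saa3, which encodes a serum amyloid A protein made in adipose tissue, was at 0 CPM in both RT libraries and at 738 and 203 CPM in the cold ones. It was near 0 after CL as well, at 7.78 and 4.40 CPM. Against a floor of 3 counts per RT library, which corresponds to a mean of 23.2 CPM, the rise was at least 20.3-fold (edgeR, adjusted p = 0.00034). In the Adrb1 line it was at 0 in both RT libraries and at 60.9 and 289 CPM in the cold. Only 21 of the 576 cells held Saa3, all but 4 of them from cold libraries, and its share in endothelial cells was not determined. Saa3 was 215 CPM with Thbs4 alone, 68.0 CPM with Cilp alone and 72.3 CPM with both, and it was too low to be tested in the cells with Cilp.

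Cxcl9, a chemokine that attracts T cells through CXCR3, was 27.6 and 6.43 CPM at RT versus 635 and 430 CPM in the cold, with 233 and 43.7 CPM after CL. The log2 fold change of cold against RT was 4.36 ± 0.66 (SE; edgeR, adjusted p = 0.00295), and it passed the threshold in all 13 alternative fits. Cxcl10, which binds the same receptor, was 27.9 and 17.6 CPM at RT versus 267 and 246 CPM in the cold (log2 fold change 3.14, edgeR adjusted p = 0.00562). In the Adrb1 line cold values were 54.2 and 386 CPM for Cxcl9, against 12.1 and 9.28 CPM at RT. Over the list of chemokines, these 2 of 11 tested rose and none fell, with a median log2 fold change of 0.51.

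Of 18 tested genes of the interferon response 6 rose and none fell. Of the 18, 17 had a positive log2 fold change and the median of the list was 2.03. Ifit3, which encodes an antiviral RNA-associated protein, was 33.2 and 16.0 CPM at RT versus 391 and 519 CPM in the cold (log2 fold change 3.86, edgeR adjusted p = 0.00447). Its relative Ifit1 was 38.9 and 68.6 CPM at RT versus 387 and 589 CPM in the cold (3.17, edgeR adjusted p = 0.00613). Irf7, the transcription factor that amplifies type I interferon production, was 24.2 and 35.5 CPM against 392 and 228 CPM (3.33, edgeR adjusted p = 0.00313).

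Bst2, the antiviral membrane protein tetherin, was 103 and 107 CPM at RT versus 722 and 1060.5 CPM in the cold, the highest level of the group (3.05, edgeR adjusted p = 0.00873). Zbp1, a sensor of nucleic acids, was 0 and 10.2 CPM at RT versus 111 and 99.3 CPM in the cold (4.60, edgeR adjusted p = 0.0369). Rtp4 and the lectin-binding protein gene Lgals3bp rose by 2.62 and 2.92 on the log2 scale, and DESeq2 did not call Rtp4 (adjusted p = 0.16). All cold values of these genes lay above all RT values, where 31.9% of all tested genes had groups without overlap. Zbp1 kept its call in only 6 of 13 alternative fits, Bst2 lost its own without COLD replicate 2, and Cxcl10 in the cells with Cilp. Without RT replicate 1, which left a single RT library, only Saa3, Cxcl9, Bst2 and Timp1 of the genes called in cold against RT kept their calls. In the Adrb1 line Ifit3 was 20.02 and 10.1 CPM at RT versus 55.7 and 450 CPM in the cold, with the higher cold value in KO, but each genotype had 1 library and was not compared.

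Promoters of these genes were searched for the letters GAAANNGAAA or their reverse complement TTTCNNTTTC, the core of the element that interferon-activated factors bind. RefSeq windows of 300 bases around the transcription start (build GRCm38.p6) existed for 14 of the 16 genes that rose, and 5 of them held the motif, Saa3, Ifit1, Ifit3, Cxcl10 and Bst2. Of all 32851 windows 3.44% held it. The windows of Cxcl9 and Irf7 did not contain these letters. Stretches of 30 bases are shown for 3 genes of the interferon list, 5′ to 3′ on the strand of the gene, with capitals marking the motif. The Ifit1 stretch begins 104 bases before the start and holds the motif in 2 places, and that of Bst2 holds 2 overlapping matches.
Ifit1, chr19:34640785-34640814, plus strand: TTTCACTTTCcagtctcagTTTCAGTTTCt
Ifit3, chr19:34583363-34583392, plus strand: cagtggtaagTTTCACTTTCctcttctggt
Bst2, chr8:71537580-71537609, minus strand: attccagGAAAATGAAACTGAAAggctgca

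A pair of matrix genes rose in the same comparison. Timp1 was 145 and 63.7 CPM at RT versus 929 and 993 CPM in the cold (log2 fold change 3.04, edgeR adjusted p = 0.008). In the cells with Cilp the log2 fold change of Timp1 was 1.14 and did not pass (edgeR, adjusted p = 0.999). The C57 cold libraries held 2 and 10 cells with Thbs4 alone and the RT libraries 2 each. COLD replicate 1, with 2 of them, was the library at 929 CPM. In WT such cells numbered 26 at RT and 18 in the cold, where Timp1 was 35.7 and 1968 CPM. The part of these cells in the rise was not tested. Tnc was 14.9 and 30.8 CPM against 152 and 173 CPM (2.94, edgeR adjusted p = 0.00793) and was too low to be tested in the cells with Cilp. It lost its call in DESeq2, without RT replicate 1 and without COLD replicate 2. In the Adrb1 line it was 8.12 and 0 CPM at RT versus 682 and 534 CPM in the cold. Phlda3, a target of p53, rose by 2.35 on the log2 scale, and Tmem176a, Tmem176b and Plac8 rose by 2.76, 2.69 and 2.46. DESeq2 did not call Phlda3 (adjusted p = 0.45). In the cells with Cilp neither Phlda3 (1.56, edgeR adjusted p = 0.658) nor Tmem176a (2.12, edgeR adjusted p = 0.0523) passed.

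The genes that fell were Col6a6, a collagen VI chain, and Zfp503, a zinc finger repressor. Col6a6 was 86.9 and 183 CPM at RT versus 31.3 and 9.92 CPM in the cold (log2 fold change -2.93, edgeR adjusted p = 0.0339). Zfp503 was 108 and 161 CPM against 0 and 22.9 CPM (-2.77, edgeR adjusted p = 0.0339). Col6a6 kept its call in 7 of 12 alternative fits and Zfp503 in 7 of 13.

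**Figure D4:**
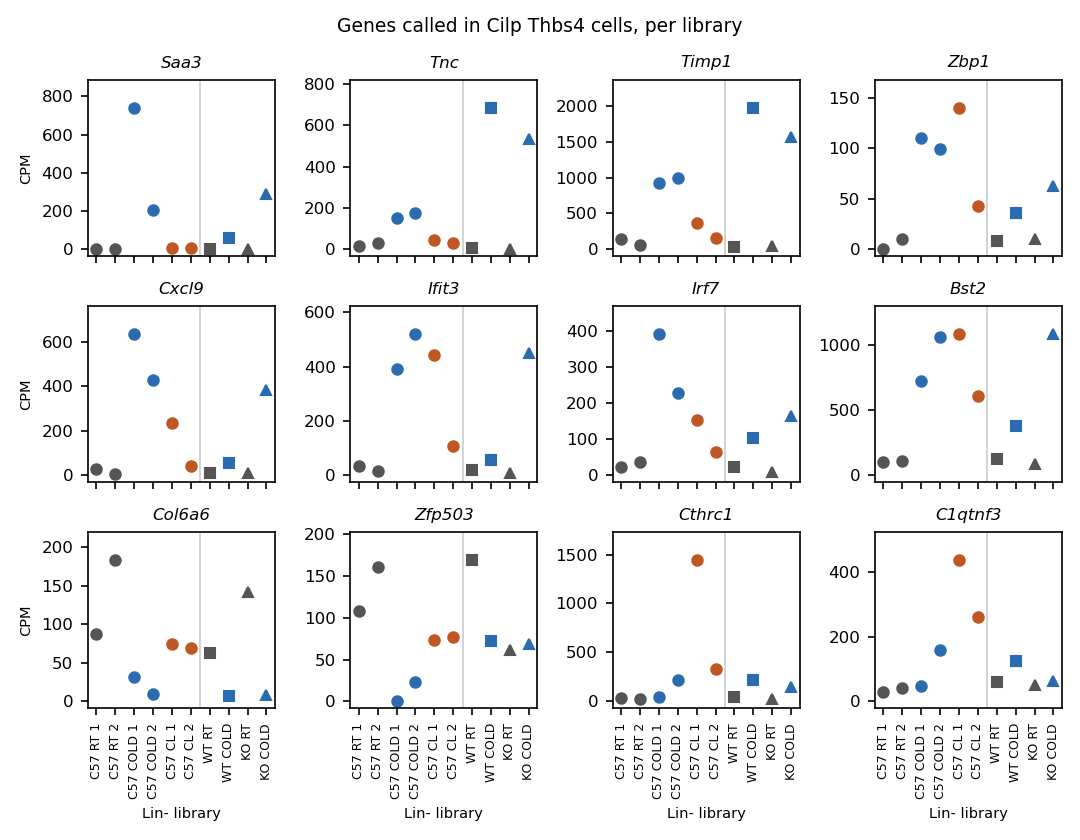
Levels in CPM of 12 genes that passed the threshold in cold against RT or CL against RT, with each point 1 library (circles C57, squares WT and triangles KO, grey RT, blue cold and orange CL) and the Adrb1 line to the right of the line. Saa3, Cxcl9 and Ifit3 are higher in both C57 cold libraries than in both C57 RT libraries, and Cthrc1 and C1qtnf3 are highest after CL.

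No collagen rose and Col6a6 was the 1 of 17 that fell. No gene passed among 14 elastic fibre and fibulin genes, 10 genes of the TGF-β list (median log2 fold change -0.62), 12 immediate early genes (-0.76, with 11 of 12 negative) or 8 genes each of complement, IGF and heat shock lists. Tgfbi in the TGF-β list was 1183 and 1982 CPM at RT versus 545 and 724 CPM in the cold, without passing the threshold (log2 fold change -1.30, edgeR adjusted p = 0.643). Lpl, the lipase, was 705 and 194 CPM against 1000.5 and 1804 CPM (1.51, edgeR adjusted p = 0.58). Fabp4 was 0.411 and 0 CPM at RT versus 1976 and 17.0 CPM in the cold, so that 1 cold library, the one with the high Car3, set its level, and it did not pass (edgeR, adjusted p = 0.0544), except with the replicate experiment as a block (edgeR, adjusted p = 1.59e-06).

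CL against RT gave 4 of 3327 genes, 0.12% of those tested, with 162 at an unadjusted p under 0.05. Cthrc1, which encodes a secreted collagen triple helix repeat protein of activated fibroblasts, was 34.3 and 20.7 CPM at RT versus 1441 and 334 CPM after CL (log2 fold change 4.78 ± 0.76, edgeR adjusted p = 0.00698). C1qtnf3, an adipokine of the C1q and TNF family, was 29.8 and 42.1 CPM against 437 and 261 CPM (3.27 ± 0.53, edgeR adjusted p = 0.00698). Bst2 rose as it did in the cold, to 1081 and 608 CPM (3.00, edgeR adjusted p = 0.0292). Amy1, salivary amylase, fell from 106 and 191 CPM to 0 and 16.4 CPM (-3.06, edgeR adjusted p = 0.0206). With the replicate experiment as a block 14 genes passed, among them all 4. All 4 lost the call without RT replicate 1, Bst2 also without CL replicate 1, and Amy1 without CL replicate 2, with a Cilp and Thbs4 sum of at least 4 and in DESeq2 (adjusted p = 0.333), and the count was 30 without RT replicate 2, 21 without COLD replicate 1, 12 without COLD replicate 2 and 7 without CL replicate 2.

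Just outside the threshold stood 4 genes at an adjusted p of 0.052 in edgeR, all with higher values after CL. Postn, which encodes the matricellular protein periostin, was 138 and 227 CPM at RT versus 1814 and 900 CPM after CL. Prg4 was 74.2 and 216 CPM against 1115 and 727 CPM, the imprinted gene Mest 47.3 and 79.0 CPM against 525 and 219 CPM, and Metrnl 46.6 and 64.3 CPM against 211 and 189 CPM. All 4 passed with the replicate experiment as a block (edgeR, adjusted p = 0.0326 for Postn, 0.021 for Prg4, 0.00277 for Mest and 0.035 for Metrnl). Among the fixed lists, fibroblast activation had 1 call of 10 (Cthrc1), 9 positive values and a median of 2.04. For cold against RT the same list had 1 call of 10, 7 positive values and a median of 1.81. After CL the interferon list had 1 call of 18 (Bst2), 15 positive values and a median of 1.10. Cold and CL were compared with the same RT libraries, so these values are not independent of those for cold.

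The direct comparison of cold with CL gave 2 of 3327 genes, 0.0601% of those tested, with 156 at an unadjusted p under 0.05. Saa3 was higher in the cold by 5.88 ± 0.74 on the log2 scale (edgeR, adjusted p = 0.000463). Mest was lower, at 60.8 and 9.79 CPM in the cold and 525 and 219 CPM after CL (log2 fold change -3.82 ± 0.63, edgeR adjusted p = 0.00877). Eln, which encodes elastin, was 167 and 150 CPM in the cold, 1442 and 546 CPM after CL and 726 and 631 CPM at RT, and the difference of cold from CL did not pass (-2.66, edgeR adjusted p = 0.0904). With the replicate experiment as a block 11 genes passed. Saa3 lost its call without CL replicate 2, and Mest without COLD replicate 2, with a Cilp and Thbs4 sum of at least 4 and in the cells with Cilp, where its log2 fold change was -3.86 (edgeR, adjusted p = 0.051). The count was 45 without RT replicate 2, 28 without COLD replicate 1, 14 without CL replicate 1, 8 without RT replicate 1 or COLD replicate 2, and 1 without CL replicate 2.

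With the Adrb1 line added and each line and genotype carrying its own baseline term, cold against RT was fitted over 4 sets of RT and cold libraries. These are called 4 experiments here, although the RT and cold libraries of the Adrb1 line were collected on different days. This fit gave 62 of 3630 genes, 1.71% of those tested, with 718 at an unadjusted p under 0.05. Of these 29 rose and 33 fell, 2 of the latter being the mitochondrial genes mt-Nd4l and mt-Nd5. In the interferon list 7 of 14 tested rose and all 14 had positive values with a median of 1.81. Tnc and Timp1 rose by 4.71 and 4.05 on the log2 scale (edgeR, adjusted p = 0.000556 and 0.000644). Timp1 was 35.7 and 49.7 CPM at RT in WT and KO and 1968 and 1570 CPM in the cold. In the same libraries the summed mural genes were 75.1 and 85.9 CPM at RT versus 512 and 226 CPM in the cold, and their part in the rise was not tested. In the cells with Cilp the log2 fold change of Timp1 was 2.41 (edgeR, adjusted p = 0.0921), and Tnc was too low to be tested there. The count was 143 without C57 RT replicate 1, 130 without C57 COLD replicate 2, and 20 to 30 without any one library of the Adrb1 line. It was 15 in the cells with Cilp.

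Among the genes that fell over the 4 experiments were markers of the cells. Hmcn2 was 559 and 833 CPM at RT in C57, 487 CPM in WT and 640 CPM in KO, and 189, 147, 236 and 179 CPM in the cold (log2 fold change -1.79, edgeR adjusted p = 0.00613). Each cold value lay under each RT value, the call held in the cells with Cilp (-1.58, edgeR adjusted p = 0.0317), and it was lost without KO COLD replicate 1 (edgeR, adjusted p = 0.086). Ramp1, a receptor partner for calcitonin gene-related peptide, was 219, 367, 125 and 102 CPM at RT versus 92.4, 131, 70.4 and 48.9 CPM in the cold. Abca8b, a lipid transporter, was 176, 510, 201 and 345 CPM at RT versus 140, 162, 74.8 and 95.7 CPM in the cold. Both passed over all the cells (edgeR, adjusted p = 0.0399 and 0.0357), but not in the cells with Cilp, where Ramp1 had a log2 fold change of -0.69 (edgeR, adjusted p = 0.359) and Abca8b one of -1.17 (edgeR, adjusted p = 0.146). DESeq2 did not call Ramp1 either (adjusted p = 0.16). Col6a6 fell by 3.44 on the log2 scale. In the Adrb1 line the RT libraries were made with another kit version and collected on other days than the cold ones. Part of these sums therefore cannot be told apart from kit or day.

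The last comparison asked whether the cells responded differently from the main kinds of ASC in the same libraries. All 3 kinds were stromal cells whose Cilp and Thbs4 sum was under 3 and whose Lrrc15 was under 0.5. ASC1-type cells (14769) were under the ASC2 and ASC3 limits of the rule and had a sum of at least 2 for Bmper, Col5a3 and Cxcl14. ASC2-type cells (11240) reached 2 for the Pi16 group alone, and ASC3-type cells (2779) reached 2 for the Gdf10 group alone. In a fit with a term for each library, the cold response differed from that of ASC1-type cells for 145 of 10838 genes, 1.34% of those tested, higher in Cilp/Thbs4 cells for 49 and lower for 96. The CL response differed for 52 genes, 0.48% of those tested, higher for 13 and lower for 39. Without COLD replicate 2 the cold count was 27, without RT replicate 2 it was 36 and without COLD replicate 1 it was 65. The CL count was 18 without RT replicate 2 and 113 without RT replicate 1. Classes differ by far in depth, and with sums thinned to the smaller total 28 and 8 genes differed.

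Among the genes whose cold response was higher than in ASC1-type cells were some that fell in those cells. Crispld2, a secreted protein of the CAP family, was 143 and 169 CPM in Cilp/Thbs4 cells at RT versus 213 and 248 CPM in the cold. In ASC1-type cells it was 556 and 1164 CPM at RT versus 69.1 and 85.4 CPM in the cold, a difference in log2 response of 3.75 ± 0.42 (edgeR, adjusted p = 5.8e-15). Smoc2, a matricellular calcium-binding protein, was 1691 and 2352 CPM at RT versus 1402 and 1177 CPM in the cold, while ASC1-type cells went from 3926 and 6016 CPM to 247 and 245 CPM (3.51 ± 0.54, edgeR adjusted p = 1.29e-07). Both passed in all 13 alternative fits, and Crispld2 did so for CL too (2.35 ± 0.42, edgeR adjusted p = 3.26e-05).

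Mfap4 differed in the opposite direction. It was 862 and 1173 CPM in Cilp/Thbs4 cells at RT, 1361 and 595 CPM in the cold and 1954 and 700 CPM after CL, with no clear order. ASC1-type cells had 3.98 and 2.93 CPM at RT, 49.6 and 36.4 CPM in the cold and 97.5 and 30.6 CPM after CL. The difference in log2 response was -3.74 ± 0.44 for cold and -3.62 ± 0.44 for CL (edgeR, adjusted p = 1.27e-13 and 1.96e-12), and the level in Cilp/Thbs4 cells stayed above that of ASC1-type cells in all 6 libraries. Cxcl13, a B cell chemokine, was 123 and 203 CPM at RT versus 46.7 and 0 CPM in the cold, whereas ASC1-type cells had 125 and 122 CPM at RT versus 255 and 376 CPM in the cold (-5.24 ± 0.66, edgeR adjusted p = 6.25e-12). The Cxcl13 call was lost without COLD replicate 2, the library at 0, and in DESeq2, with an adjusted p of up to 0.0935. With sums thinned to the smaller total Mfap4 lost both calls, at -2.97 for cold and -2.69 for CL (edgeR, adjusted p = 0.124 and 0.342).

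Some differences rested on single libraries. H2-Eb1, a class II antigen presentation gene, was 0, 8.26, 0 and 422 CPM in the RT and cold libraries, the high value being the C57 COLD replicate 2 library with the high Cd74, and the estimate of 5.31 turned to -7.76 without it. Nnat was 238 CPM in COLD replicate 1, the library with the high Car3, Fabp4 and Adipoq, and at most 5.90 CPM in the other C57 libraries. Dlk1, the imprinted preadipocyte factor, was at 0 in the RT and cold libraries and at 89.7 and 36.9 CPM after CL. ASC1-type cells had 129 and 107 CPM of Dlk1 at RT and 22.8 and 26.9 CPM after CL, and the fitted difference for CL (edgeR, adjusted p = 3.45e-09) depends on the prior count and is not a bound. Mest differed for CL by 2.92 ± 0.41 (edgeR, adjusted p = 5.21e-09), with 70.2 and 52.1 CPM in ASC1-type cells after CL. With thinned sums this difference was 2.40 (edgeR, adjusted p = 0.0505).

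**Figure D5:**
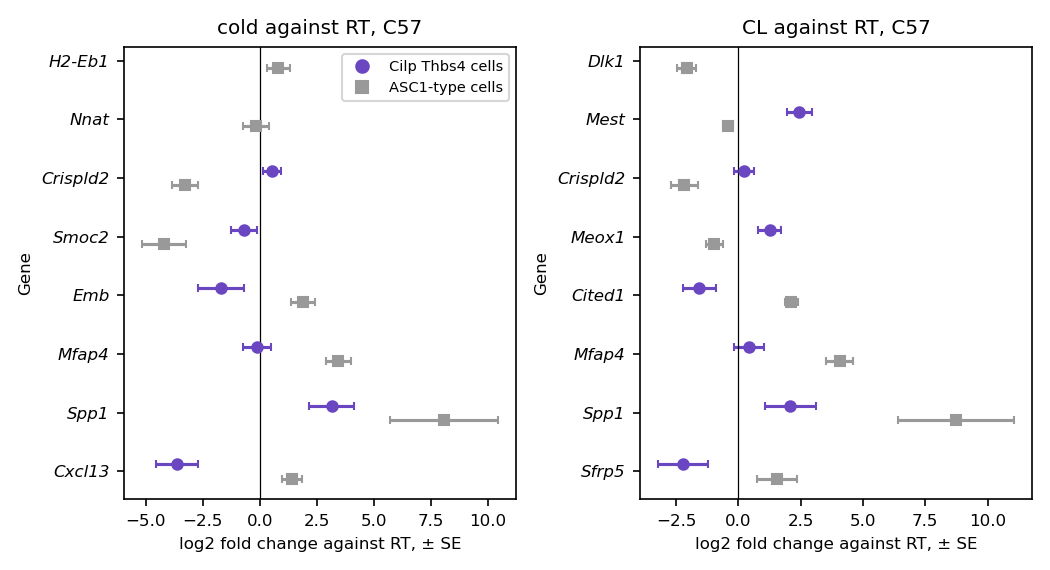
Log2 fold change against RT with its standard error, after cold (left) and CL (right), in Cilp/Thbs4 cells (circles) and ASC1-type cells (squares), for the 8 genes with the largest difference in each. H2-Eb1, Nnat and Dlk1 have no circle because they were too low to be tested in Cilp/Thbs4 cells alone. Crispld2 and Smoc2 fell in ASC1-type cells in the cold and lie near 0 in Cilp/Thbs4 cells, and Mfap4 rose in ASC1-type cells.

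Against ASC2-type cells the cold response differed for 33 of 8844 genes, 0.373% of those tested, higher for 10 and lower for 23, and the CL response for 30, 0.339% of those tested, higher for 12 and lower for 18. C4b, a complement component, was 243 and 236 CPM in Cilp/Thbs4 cells at RT versus 269 and 37.2 CPM in the cold, while ASC2-type cells rose from 58.4 and 54.2 CPM to 412 and 406 CPM (difference -4.16 ± 0.43, edgeR adjusted p = 1.85e-12). Adm, the vasodilator peptide adrenomedullin, was 369 and 619 CPM at RT versus 139 and 159 CPM in the cold, while ASC2-type cells had 43.2 and 76.9 CPM and then 149 and 139 CPM (-3.01 ± 0.33, edgeR adjusted p = 7.55e-12). The levels of Adm thus lay apart at RT and met in the cold. The TGF-β ligand gene Tgfb2 was 14.8 and 28.3 CPM at RT versus 91.9 and 65.8 CPM in the cold, while ASC2-type cells had 104 and 159 CPM and then 55.5 and 57.4 CPM (2.87 ± 0.63, edgeR adjusted p = 0.00644). This call held in 9 of 13 alternative fits.

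The cold response of the periostin gene differed as well, as Postn was 290 and 789 CPM in the cold in Cilp/Thbs4 cells and 213 and 183 CPM in ASC2-type cells, from 239 and 523 CPM there at RT (2.38 ± 0.405, edgeR adjusted p = 7.33e-05), a call that was lost in DESeq2 and without COLD replicate 2. For cold, leaving out RT replicate 2 gave 15 genes, COLD replicate 2 gave 17 and RT replicate 1 gave 55. The CL count was 53 without RT replicate 1 and 18 without RT replicate 2, CL replicate 1 or CL replicate 2. DESeq2 called only 4 and 1 genes, and Adm, C4b in the cold and Mfap4 after CL were among those that passed in all 13 alternative fits.

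Against ASC3-type cells, the kind with the highest Mfap4 of the 3, 1 of 6052 genes differed in its cold response, 0.0165% of those tested, with 258 at an unadjusted p under 0.05. It was Mfap4, at 37.9 and 213 CPM in ASC3-type cells at RT versus 938 and 402 CPM in the cold (-2.90 ± 0.50, edgeR adjusted p = 0.0385), and in the cells with Cilp it was -2.68 and did not pass (edgeR, adjusted p = 0.163). For CL edgeR called 0 genes, 0% of those tested, with 210 at an unadjusted p under 0.05, and DESeq2 also called 0. Fits without 1 library called 2 to 18 genes for cold and 0 to 13 for CL, the cold count being 18 without COLD replicate 1 and 16 without RT replicate 1, and the CL count 13 without COLD replicate 1 and 11 without COLD replicate 2. These fits do not show that the classes responded alike.

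The interferon list also rose in the other classes in the cold. In separate fits of each class, 17 of 20 genes of the list rose in ASC1-type cells, where 12% of all genes were called, 8 of 20 in ASC2-type cells (0.378% of all called) and 14 of 20 in ASC3-type cells (1.6%), with medians of 2.33, 2.03 and 2.47. The median of 2.03 over 18 genes in Cilp/Thbs4 cells was at the low end of these values. In the tests of the difference, none was higher in Cilp/Thbs4 cells, and 1 of 20 was lower than in ASC1-type cells, 1 of 20 lower than in ASC2-type cells and 0 of 19 different from ASC3-type cells. Other lists had calls there too. In the cold 6 of 15 chemokines rose in ASC1-type, 1 of 14 in ASC2-type and 1 of 12 in ASC3-type cells. Acute-phase genes rose in 3 of 11, 2 of 10 and 2 of 7 cases in that order. After CL 3 of 13, 1 of 11 and 1 of 12 fibroblast activation genes rose. Of all genes 0.905%, 0.0615% and 0.0456% were called there. For CL, 3 of 13 were lower in Cilp/Thbs4 cells than in ASC1-type cells and 0 higher. Against ASC2-type cells 1 of 12 was higher.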

How the data were processed

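Per the labels, libraries were single-cell RNA-seq libraries of the Lin- fraction. The authors processed them with Cell Ranger 3.0.1 (mm10 per the submitters' processing notes), and corrected the UMI counts with SoupX for cell-free RNA, with Fabp4 and Car3 as the genes taken to be absent from the cells when the share of cell-free RNA was estimated. The deposited values are therefore expected counts, with 97.2 to 99.6% of values above 0 in a library being fractional.

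Values were summed over cells per library and class, rounded to whole numbers, and tested across libraries with edgeR 4.0.16 (quasi-likelihood F-test, TMM, filterByExpr) in R 4.3.3, with Benjamini-Hochberg adjustment and 0.05 as the limit. Per the study's methods, same-numbered C57 libraries belong to 1 replicate experiment, so the number pairs them, although their deviations from the group means hardly correlated (0.01, -0.10 and 0.04). The main fit had no replicate term, and blocked values stand beside the results they change. Differences in response were fitted with a term for each library. Shares were compared with exact permutation tests (scipy 1.17.1) and given exact binomial intervals. Doublet scores came from Scrublet in scanpy 1.11.5 and were used in an alternative only. DESeq2 1.42.0, RLE size factors, no filter, leaving out each library, a Cilp and Thbs4 sum of at least 4, and thinned counts were further alternatives. The scripts were tested on simulated data. Endothelial cells, used as background for shares of cells, had a Pecam1 and Cdh5 sum of at least 3 and a stromal sum under 1.

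Genes are listed in the files by symbol. Coordinates are from GENCODE vM21 and promoter windows from RefSeq, both GRCm38. Named genes were the 12 rising and 12 falling genes of largest change past the limit in cold and CL against RT, the 4 in each direction in the tests of the difference, or otherwise the 8 of lowest p, with a mean of at least 20 CPM and no overlap between groups, and genes of 21 role lists and 18 marker lists. The cells, lists and tests were chosen with earlier results of these data known. A library was a pool of mice, and p-values measure the spread between pools. Lin+ libraries were not used here, and results for 2 genes are not reported here.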

Additional observations from a re-analysis of the deposited data

Results flagged for a closer look

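The cold response of the share of Cilp/Thbs4 cells went in opposite directions in the C57 and the Adrb1 lines. Cold minus RT was -1.04 and -1.62 percentage points in the C57 pairs, and 0.498 points in WT and 0.681 points in KO. The difference between lines was not tested, and in the Adrb1 line cold coincides with kit version and collection day. After thinning to 1500 UMIs the KO difference also ran downwards, where cells under that depth were left out and some cells passed that had not before.

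The response to cold or CL differed from that of another kind of ASC for the genes named by the fixed limits, each as the log2 response in Cilp/Thbs4 cells minus that in the other class in edgeR. Against ASC1-type cells in the cold these were H2-Eb1 (5.31), Nnat (4.53), Crispld2 (3.75) and Smoc2 (3.51) on the high side, and Cxcl13 (-5.24), Spp1 (-4.32), Mfap4 (-3.74) and Emb (-3.67) on the low side. After CL they were Dlk1 (12.70), Mest (2.92), Crispld2 (2.35) and Meox1 (2.23), and Sfrp5 (-4.08), Spp1 (-3.84), Mfap4 (-3.62) and Cited1 (-3.55). For Dlk1 and Fabp4 the RT level was at or near 0 in Cilp/Thbs4 cells and the estimate is no bound.

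Against ASC2-type cells in the cold the genes were Fabp4 (9.86), H19 (4.64), Tgfb2 (2.87) and Postn (2.38), and C4b (-4.16), Cxcl13 (-3.90) and Adm (-3.01). After CL they were Sfrp2 (2.90), Tgfb2 (2.45), Cxcl14 (2.04) and Postn (1.96), and Mfap4 (-3.07), C4b (-2.88), Wisp2 (-2.78) and Amy1 (-2.29). Against ASC3-type cells the single gene was Mfap4 in the cold (-2.90). Spp1 and Sfrp5 were high in the cells with Thbs4 alone, with Spp1 at 502 CPM and Sfrp5 at 720 CPM in C57 COLD replicate 2 and both at 0 in COLD replicate 1. Several of these calls depend on the processing. Emb passed in 3 of 12 alternative fits, H2-Eb1 in 7 of 11, Nnat in 8 of 12, Fabp4 in 8 of 13, Sfrp5 in 7 of 13, Spp1 in 9 of 12 for cold and 7 of 13 for CL, H19 in 9 of 13, Amy1 in 8 of 13 and Tgfb2 in 9 of 13 each. Wisp2 passed in 10 of 13 and was -0.44 with thinned sums, and Cxcl14 passed in 9 of 13. With thinned sums Spp1 was -0.28 for cold and -0.82 for CL. The calls of Mfap4 (-2.97 for cold and -2.69 for CL) and, after CL, Cited1 (-2.66), Meox1 (1.94) and Mest (2.40) against ASC1-type cells were also lost with thinned sums, and that of Cxcl13 in DESeq2 and without COLD replicate 2. Fabp4 was 1976 CPM in COLD replicate 1 and 17.0 CPM in replicate 2, and H19 was 0 and 145 CPM.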

How the results depend on the processing

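Without 1 library the share difference ranged from -1.93 to -0.736 points for cold in C57, from -0.664 to 0.0195 over 4 experiments and from -1.52 to -0.313 for CL. The count of genes ranged from 13 to 61 for cold against RT, 3 to 30 for CL against RT, 1 to 45 for cold against CL and 20 to 143 over 4 experiments. For the difference in response it ranged from 27 to 132 (ASC1-type, cold), 18 to 113 (ASC1-type, CL), 15 to 55 (ASC2-type, cold), 18 to 53 (ASC2-type, CL), 2 to 18 (ASC3-type, cold) and 0 to 13 (ASC3-type, CL). Without a filter on low counts, 60, 18, 37 and 219 genes were called in cold against RT, CL against RT, cold against CL and 4 experiments, and 14 and 7 differed from ASC3-type cells in cold and CL. With a Cilp and Thbs4 sum of at least 4 the counts were 1 for cold against CL, 25 over 4 experiments and 2 for the ASC3-type cold response. Cells with Cilp, an alternative chosen after seeing the data, gave 9, 7, 0 and 15, and 0 for the ASC3-type cold response. Without the top doublet scores cold against CL gave 5. DESeq2 gave 18 (ASC1-type, CL), 4 and 1 (ASC2-type, cold and CL), and thinned sums gave 28 and 8 (ASC1-type) and 16 and 7 (ASC2-type).

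With the replicate number as a block, cold against RT gave 27 genes, among them all 18, CL against RT gave 14, cold against CL 11 and the 4 experiments 58, and the paired share differences had the same means. Among the calls given in the text, this pairing changed no others than Fabp4 in the cold and Postn, Prg4, Mest and Metrnl after CL, which passed with it. The cause of these shifts was not tested.

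Among single genes the estimate for H2-Eb1 turned to -7.76 without C57 COLD replicate 2, -7.64 with a sum of at least 4 and -4.83 without the top doublet scores, and that for H19 ranged from -5.66 without C57 COLD replicate 2 to 5.19 without C57 COLD replicate 1. With 24 to 110 cells per library, genes under about 20 CPM could not be followed.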

Other observations

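Gene lists not described above were set against other stromal cells in the same way, with genes of at least 20 CPM counted, beside a median ratio of 0.978 over all genes. These ratios describe cells chosen on the same counts and carry no test. Fibroblast activation genes were higher in 7 of 12 cases with a median ratio of 1.48, BMP ligands and antagonists in 4 of 6 (1.22) and elastic fibre and fibulin genes in 9 of 15 (1.18). The BMP list counts Gdf10, which the rule held low. Glucocorticoid targets and metallothioneins were higher in 5 of 8 (1.08), complement genes in 5 of 9 (1.04) and genes of the IGF axis in 6 of 8 (1.03). Hyaluronan genes were higher in 2 of 5 (0.956), proteases, inhibitors and crosslinkers of the matrix in 10 of 23 (0.94), interferon response genes in 6 of 20 (0.93), acute-phase genes in 3 of 8 (0.86) and heat shock genes in 1 of 10 (0.82).

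The summed ASC1 markers were 925 to 1617 CPM over libraries against 981 to 3391 CPM in other stromal cells. The sum was 743 to 1919 CPM against 1922 to 5466 CPM for the ASC2 markers, and 323 to 972 CPM against 299 to 1055 CPM for the ASC3 markers, several of which the choice of cells had limited. Sums of chondrocyte genes were 0 to 84.9 CPM, of osteoblast genes 0 to 45.1 CPM, of muscle genes 0 to 50.01 CPM, of mesothelial genes 0 to 84.9 CPM and of erythroid genes 0 to 29.5 CPM.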
